A study of Mus musculus with 6 samples.

Results

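The genes described here encode enzymes that place, remove or read methyl groups on lysine 9 of histone H3 (H3K9), and the measurement was the trimethylated form of that residue (H3K9me3) on their own genes. Members were the deposited regions whose gene name was Setdb1, Setdb2, Suv39h2, Ehmt1, Ehmt2, Kdm4a, Kdm4b, Kdm4c, Trim28 or Cbx5. The rule used gene names and no measured value, but the genes were chosen with earlier results of these data known. This rule gave 9 of 58511 regions, each 400 bp long, from 7 of the 10 genes. Suv39h2, Ehmt2 and Cbx5 had 0 regions. H3K9me3 was profiled by CUT&Tag, in which an antibody tethers the Tn5 transposase to the mark so that nearby DNA is tagged and sequenced, in endothelial progenitor cells (EPCs) from mouse bone marrow. The cells were depleted of lineage-positive cells, sorted magnetically for Sca-1 and CD31 and cultured in EGM-2 medium, and all mice were C57BL/6J, 8 weeks old. M-EPC came from males, F-EPC from females with intact ovaries, and OVX-EPC from females whose ovaries were removed at about 35 days of age, with 2 libraries in each group. The labels do not say that the duplicates came from separate animals, so p-values measure the spread between these libraries, which may be technical, and no library without the antibody was used here, so the background share of each value was not tested.

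H3K9 trimethylation is a mark of silent heterochromatin. SETDB1 places it in euchromatic chromosome arms and at retroelements, where it is brought by TRIM28 (KAP1), a corepressor bound by KRAB zinc finger proteins, while SUV39H1 and SUV39H2 place it at pericentromeric repeats. EHMT2 (G9a) and its partner EHMT1 (GLP) chiefly make the mono- and dimethylated forms, KDM4A, KDM4B and KDM4C remove tri- and dimethyl groups, and CBX5 (HP1α) binds the methylated residue and compacts chromatin.

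The libraries held between 288353 and 573821 reads in regions, and in M-EPC and OVX-EPC the median region held 6 or 7 reads, so a single value at the members rested on 3 to 47 reads. Reads at the Y-linked gene Kdm5d numbered 13 and 12 for M-EPC and 0 for each OVX-EPC library, as the labels say. Those at Eif2s3y, also Y-linked, numbered 15 and 8 against 0. Chromosome X held 1.20% of the reads of each M-EPC library and 2.40% and 2.43% of those of OVX-EPC. The share on chromosome Y did not separate these groups (0.133% and 0.117% against 0.116% and 0.127%). F-EPC had no reads on X or Y, so the sex of F-EPC could not be checked. The 4 regions of Pecam1 (CD31) held 21 to 35 reads per library in all groups and Ly6a (Sca-1) had 0 regions, and since a silencing mark does not measure expression these values are no test of the sort. Both F-EPC libraries ended before the end of the genome in the order of the table (chromosomes 1, 10 to 19, 2 to 9, X and Y), F-EPC replicate 1 after chr16:30556738-30557137 and replicate 2 after chr3:110808454-110808853. Regions up to the earlier of these positions, 26999 in all, are called covered regions, and 1 member region (Setdb2) was among them. Of the other members, 4 regions had reads in F-EPC replicate 2 alone and 4 had reads in neither F-EPC library. A lack of F-EPC reads at those 8 regions is a lack of data and not a low level of the mark.

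Core promoters made up most of the member regions. By the authors' annotation 6 of the 9 regions (66.7%) lay within 1 kb of a transcription start site, against 15.3% of all regions, 2 (22.2%) lay in introns, against 21.1%, and 1 (11.1%) was distal intergenic, against 54.4%. Coordinates are those of mm10. In GENCODE M21, 4 of the 6 promoter regions held a start site of a protein-coding transcript. The Kdm4a region (ENSMUSG00000033326, chr4:118179841-118180240) was centred 2 bp from the start site and included 5′ UTR sequence. The Kdm4c region (ENSMUSG00000028397, chr4:74251738-74252137) was likewise centred 2 bp from the start of transcript Kdm4c-201 and overlapped its 5′ UTR, at a start site inside the longer transcript, and another gene, A230083N12Rik, began within 1 kb. The Ehmt1 region (ENSMUSG00000036893, chr2:24919449-24919848) spanned the start site and reached the first coding exon. Trim28 (ENSMUSG00000005566) had a pair of regions 434 bp apart, chr7:13023992-13024391 over its start site and 5′ UTR and chr7:13023158-13023557 centred 794 bp upstream of the start. The Kdm4b promoter region (ENSMUSG00000024201, chr17:56325638-56326037) ended 25 bp before the start site and so lay outside the transcript, and a second Kdm4b region, chr17:56339018-56339417, lay 13127 bp into the gene in an intron. The Setdb2 region (ENSMUSG00000071350, chr14:59429090-59429489) was intronic, 11585 bp downstream of the start, and the Setdb1 region (ENSMUSG00000015697, chr3:95376466-95376865) was intergenic, with its centre 19464 bp upstream of the start.

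The promoter regions held more CpGs than the other members, 18 to 44 against 0 to 10 over 400 bp. The ratio of observed to expected CpGs separated them less, with 0.517 at the distal Setdb1 region and 0.531 at the upstream Trim28 region. Sequences are shown for the promoter regions, from the part before the start site, and for the centres of the Setdb1 and Setdb2 regions. The printed Setdb1 stretch holds 2 of the 10 CpGs of its region, and the intronic Kdm4b region is not shown. The capitals mark CG dinucleotides, the sites of DNA methylation in mammals, and the letters were read from RefSeq's GRCm38 assembly, 5′ to 3′ on the strand of the gene for promoters and on the plus strand otherwise. The last is the stretch before the start of Suv39h2, which had no region.
Kdm4a promoter, chr4:118180044-118180240, minus strand: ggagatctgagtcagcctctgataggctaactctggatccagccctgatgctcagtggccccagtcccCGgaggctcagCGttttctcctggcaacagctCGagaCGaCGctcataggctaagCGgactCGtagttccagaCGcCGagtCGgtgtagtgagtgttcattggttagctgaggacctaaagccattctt
Kdm4b promoter, chr17:56325738-56326037, plus strand: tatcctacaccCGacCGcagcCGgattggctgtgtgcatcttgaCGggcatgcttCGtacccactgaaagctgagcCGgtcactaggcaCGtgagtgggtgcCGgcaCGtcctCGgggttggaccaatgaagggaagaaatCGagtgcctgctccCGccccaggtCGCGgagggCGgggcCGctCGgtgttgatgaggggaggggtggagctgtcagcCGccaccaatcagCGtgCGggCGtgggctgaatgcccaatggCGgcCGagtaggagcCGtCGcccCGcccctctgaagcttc
Kdm4c promoter, chr4:74251738-74251935, plus strand: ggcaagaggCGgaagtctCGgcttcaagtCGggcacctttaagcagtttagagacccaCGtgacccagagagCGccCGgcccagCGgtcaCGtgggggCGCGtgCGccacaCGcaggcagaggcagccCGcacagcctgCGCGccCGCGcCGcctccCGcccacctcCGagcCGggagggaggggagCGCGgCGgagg
Ehmt1 promoter, chr2:24919615-24919848, minus strand: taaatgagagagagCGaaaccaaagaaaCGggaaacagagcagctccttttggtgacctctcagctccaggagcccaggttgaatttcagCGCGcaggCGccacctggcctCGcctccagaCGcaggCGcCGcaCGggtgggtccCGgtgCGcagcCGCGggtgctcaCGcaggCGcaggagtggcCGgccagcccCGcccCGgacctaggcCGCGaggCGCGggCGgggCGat
Trim28 start-site promoter, chr7:13023992-13024151, plus strand: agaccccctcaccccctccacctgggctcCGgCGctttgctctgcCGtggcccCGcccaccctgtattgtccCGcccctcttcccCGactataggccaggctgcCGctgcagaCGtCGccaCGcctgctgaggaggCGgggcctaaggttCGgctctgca
Trim28 upstream region, chr7:13023258-13023557, plus strand: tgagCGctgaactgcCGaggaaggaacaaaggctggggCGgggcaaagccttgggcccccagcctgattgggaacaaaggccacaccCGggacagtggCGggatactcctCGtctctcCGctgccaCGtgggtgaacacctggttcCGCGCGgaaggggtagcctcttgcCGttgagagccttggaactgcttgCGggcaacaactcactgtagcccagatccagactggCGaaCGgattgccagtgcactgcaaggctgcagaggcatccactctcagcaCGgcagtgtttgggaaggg
Setdb2 intron, chr14:59429140-59429439, plus strand: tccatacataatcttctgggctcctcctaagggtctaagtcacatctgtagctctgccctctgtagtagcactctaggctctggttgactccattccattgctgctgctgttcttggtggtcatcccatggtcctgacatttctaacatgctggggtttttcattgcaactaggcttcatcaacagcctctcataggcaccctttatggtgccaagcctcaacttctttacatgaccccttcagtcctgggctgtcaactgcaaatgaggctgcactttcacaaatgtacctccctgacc
Setdb1 distal region, chr3:95376516-95376815, plus strand: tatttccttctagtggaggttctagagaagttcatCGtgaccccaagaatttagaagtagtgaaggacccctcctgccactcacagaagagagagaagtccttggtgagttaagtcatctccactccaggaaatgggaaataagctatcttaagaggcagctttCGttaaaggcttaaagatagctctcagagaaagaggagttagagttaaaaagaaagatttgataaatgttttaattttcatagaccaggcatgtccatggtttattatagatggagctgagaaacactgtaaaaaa
Suv39h2 before its start, chr2:3475032-3475281, minus strand: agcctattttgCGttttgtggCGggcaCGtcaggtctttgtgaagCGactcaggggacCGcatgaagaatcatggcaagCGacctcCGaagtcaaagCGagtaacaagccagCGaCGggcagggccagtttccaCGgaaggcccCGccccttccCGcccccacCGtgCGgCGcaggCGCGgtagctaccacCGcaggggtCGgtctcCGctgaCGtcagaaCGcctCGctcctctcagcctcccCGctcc

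Over its whole 400 bp, the Ehmt1 region held 44 CpGs, as did the Kdm4c region, and 13.7% of all core promoter regions held as many or more. The start-site region of Trim28 held 38 and the Kdm4b promoter region 35, and 24.4% and 31.3% of core promoters reached these counts. The upstream Trim28 region (20 CpGs) and the Kdm4a region (18) fell below the median core promoter region, which held 26. The intronic Kdm4b region had 5 CpGs, the distal Setdb1 region 10, and the intronic Setdb2 region 0, beside medians of 3 for introns and 3 for distal intergenic regions. Repeats masked 65.8% of the bases of the Setdb2 region, 53.0% of the intronic Kdm4b region and 47.0% of the Setdb1 region, whereas 5 of the 9 regions, all at promoters, had no masked base. Among all core promoter regions 41.4% had none. The genes without a region were not poor in CpGs at their most upstream start, where the surrounding 400 bp held 46 CpGs at Suv39h2, 47 at Ehmt2 and 33 at Cbx5. An internal start of Ehmt2 had 13.

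**Figure D1:**
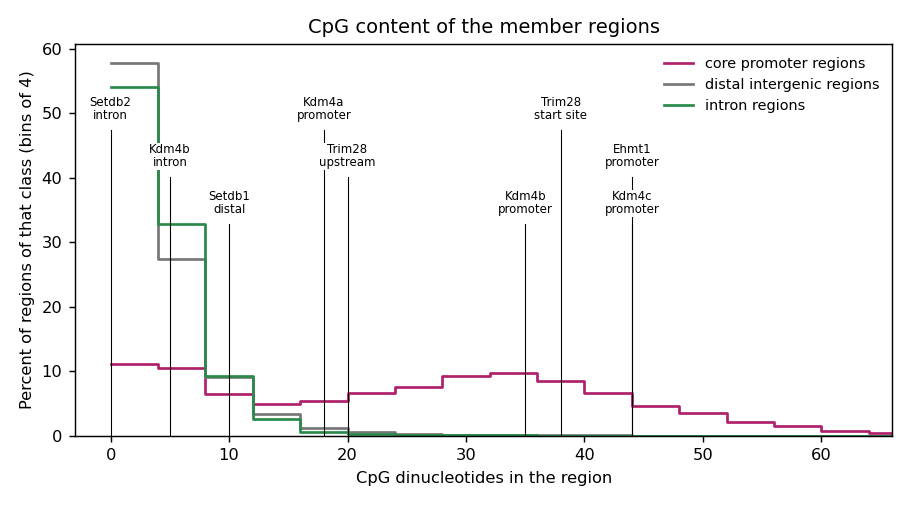
Number of CpG dinucleotides (x axis) in 400 bp regions of 3 annotation classes, as percent of the class in bins of 4 (y axis, stepped lines), with a vertical line at the count of each member region. The Setdb2 intron stands at 0 and the Ehmt1 and Kdm4c promoters at 44, while the Kdm4a promoter and the upstream Trim28 region lie below the core promoter median of 26.

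Start sites of the members differed in whether any region lay near them, whatever gene the authors assigned it to. For 5 of the 10 genes a region held a start site, and for 7 a region lay within 400 bp. The start of Setdb2 lay inside chr14:59440636-59441035, which the authors assigned to Cab39l, and the start of Cbx5 lay 122 bp from chr15:103239938-103240337, assigned to Hnrnpa1. These shared promoters were looked up after the members' values were seen, and they are not counted as members. The nearest regions to the starts of Setdb1, Ehmt2 and Suv39h2 were 19264, 23666 and 26102 bp away, and only that of Setdb1 carried the gene's own name. No region overlapped the body of Suv39h2, Ehmt2, Setdb1 or Cbx5. Absence from the table says that no peak was called there, and the reads behind such stretches were not analysed here.

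**Figure D2:**
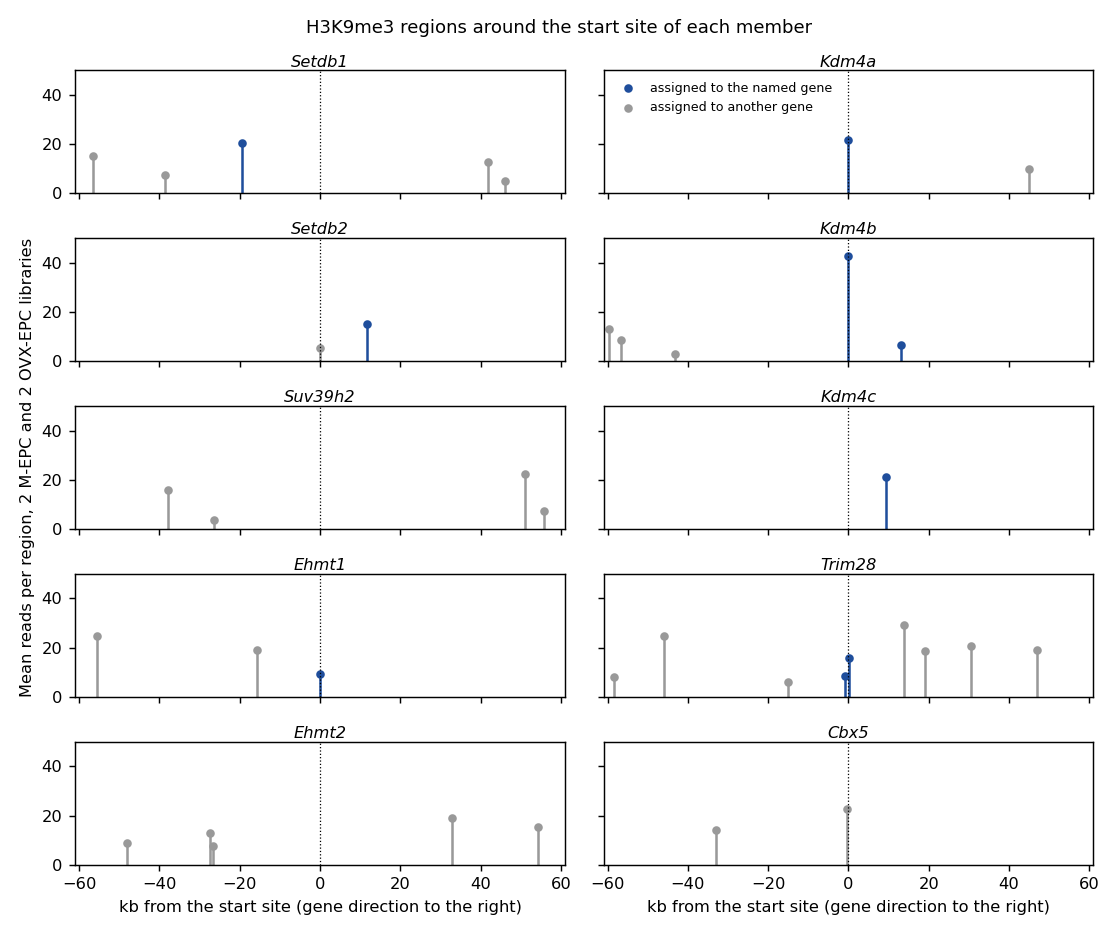
Mean reads per region over the 2 M-EPC and 2 OVX-EPC libraries (y axis) against distance in kb from the most upstream protein-coding start (x axis, gene direction to the right), one panel per gene, with regions assigned to the gene in blue and those assigned to other genes in grey. Kdm4b carries the highest member region at its start, the Kdm4c region sits at an internal start, and Suv39h2 and Ehmt2 have no region within 20 kb.

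Levels are the authors' normalized reads per region, and all members have the same width. Repeats masked 65.8% of the Setdb2 region, 53.0% of the Kdm4b intron and 47.0% of the Setdb1 region, and dropping poorly mapped reads lowers values in repeats. The part of this in the order of the members was not tested. In M-EPC the promoters of the eraser genes carried the highest values. At the Kdm4b promoter the M-EPC libraries gave 50.5 and 41.6 normalized reads and the OVX-EPC libraries 38.5 and 37.8. These came from 47, 46, 38 and 40 reads, and each was above every value of every other member in these 4 libraries. The mean reads of this region stood at percentile 98.7 of all regions and 97.7 of core promoters. The mean M-EPC value of 46.0 ± 6.32 (SD, n = 2) was followed by 27.2 ± 2.63 at Kdm4a, 23.0 ± 6.98 at Kdm4c and 20.4 ± 4.58 at the distal Setdb1 region. Next came the Trim28 start-site region at 16.4 ± 2.69 and the Setdb2 intron at 16.0 ± 4.73, and then Ehmt1 at 10.1 ± 3.63, the upstream Trim28 region at 9.46 ± 5.78 and the Kdm4b intron at 9.44 ± 1.85. From Kdm4a down, each neighbour in this order overlapped the next within 1 SD. The OVX-EPC order differed: the Kdm4b promoter at 38.2 ± 0.45 was followed by the distal Setdb1 region at 19.5 ± 3.21, Kdm4c at 18.5 ± 1.88 and Kdm4a at 15.6 ± 0.63. The Kdm4b intron had the lowest mean in both groups, with 3.95 ± 1.57 in OVX-EPC. Among core promoters the Kdm4a and Kdm4c regions stood at percentiles 87.2 and 86.2, the Trim28 start-site region at 76.4, and Ehmt1 and the upstream Trim28 region at 45.8 and 40.9.

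**Figure D3:**
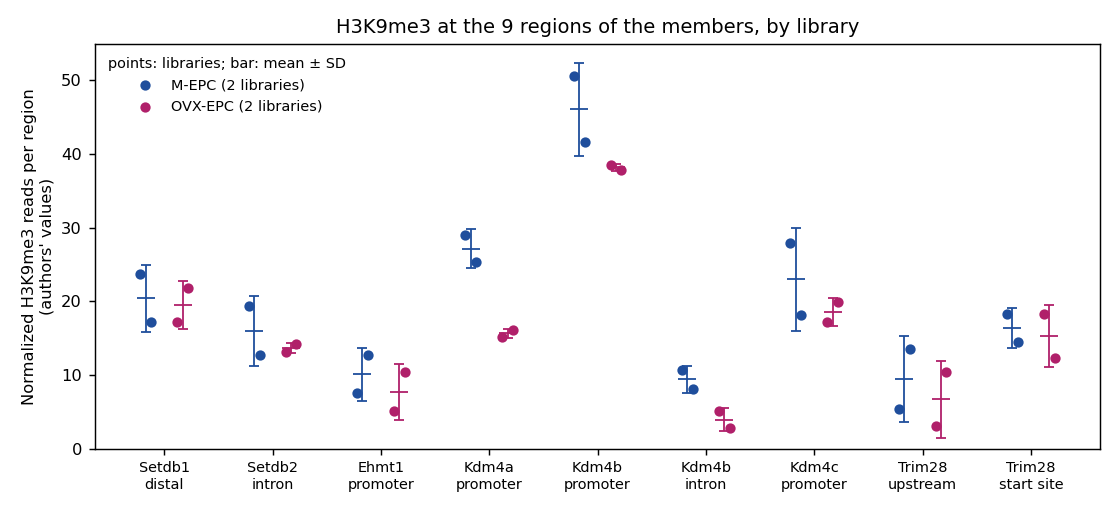
Authors' normalized H3K9me3 reads (y axis) at the 9 member regions (x axis) in the M-EPC and OVX-EPC libraries, with points for libraries and bars for mean ± SD (n = 2). The Kdm4b promoter lies above all other members, and at Kdm4a and both Kdm4b regions the OVX-EPC points lie below both M-EPC points.

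OVX-EPC were compared with M-EPC to ask whether the mark at these genes differed between males and females without ovarian hormones. None (0) of the 8 member regions tested passed an adjusted p of 0.05 by limma on log2(value + 1) with Benjamini-Hochberg adjustment over all 16931 regions tested, beside 76 regions (0.449%) in the whole table. By edgeR also 0 members passed. By DESeq2 0 passed as well, but Setdb2, Ehmt1 and both Trim28 regions received no adjusted p and so could not pass. At an unadjusted p under 0.05 the count was 1 by limma (Kdm4a), against 16.1% of all regions, and 0 by edgeR and DESeq2. The fitted change was below 0 at all 8 members tested, against 62.3% of all regions and 75.4% of core promoters. That count was 6 of 8 with TMM factors, by edgeR and by DESeq2, and ranged from 4 (without M-EPC replicate 1) to 7 with 1 library left out. The groups did not overlap at 2 of the 8, Kdm4a and the Kdm4b promoter, both lower in OVX-EPC, against 31.0% of all regions and 37.4% of core promoters. The members' median log2 fold change was -0.26, against -0.16 over all regions and -0.29 over core promoters. With TMM factors the medians were -0.11 for the members, -0.01 for all regions and -0.13 for core promoters, and without M-EPC replicate 1 the members' median was -0.04. M-EPC replicate 1 also had the largest share of its reads in core promoters, 25.9% against 22.7% in M-EPC replicate 2 and 21.3% in each OVX-EPC library, and the part of this difference in the members' values was not tested.

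Kdm4a, whose product removes trimethyl and dimethyl groups from H3K9, had the largest fitted difference among the members tested. Its promoter gave 29.0 and 25.3 normalized reads in the male libraries and 15.2 and 16.1 in those from ovariectomized females. Both OVX-EPC libraries lay below both M-EPC libraries, on 15 and 17 reads against 27 and 28. The exact Poisson 95% intervals of those counts, which cover counting error only, were 8.40 to 24.7 and 9.90 to 27.2 reads against 17.8 to 39.3 and 18.6 to 40.5, so they overlapped. The log2 fold change was -0.76 (SE 0.32, 95% confidence interval -1.41 to -0.11, limma adjusted p = 0.252, lower in 2 of 2 libraries). The unadjusted p of 0.0236 by limma was 0.0527 by edgeR and 0.256 by DESeq2. By limma it lay between 0.0183 and 0.0466 with TMM factors, other pseudocounts, no filter or the replicate number as a block. That range does not cover fits with 1 library left out, which leave a group with 1 library. For these only the log2 fold change is given, and it ran from -0.85 to -0.66.

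The Kdm4b and Kdm4c promoters had smaller fitted changes than Kdm4a. At the Kdm4b promoter the log2 fold change was -0.26 (95% confidence interval -0.79 to 0.27, limma adjusted p = 0.645). The M-EPC libraries differed from each other there by more than the group means did. The Kdm4b intron gave 10.7 and 8.13 normalized reads in the male libraries against 5.06 and 2.84, and with 1 value of 4 at or above 10 it did not enter the test. With no filter its log2 fold change was -1.10 (95% confidence interval -2.30 to 0.09), a larger change than that of Kdm4a, on 3 to 10 reads per library. At the Kdm4c promoter M-EPC gave 27.9 and 18.1 and OVX-EPC 17.2 and 19.9, so the groups overlapped, and the interval of the log2 fold change ran from -0.94 to 0.40. Summed over its regions, Kdm4b gave 61.2 and 49.7 for M-EPC libraries against 43.5 and 40.7 for OVX-EPC. A two-sided exact permutation test of the Kdm4b sums gave p = 0.333, the smallest that 2 libraries against 2 allow.

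At each single region of the corepressor and writer genes the groups overlapped. The start-site region of Trim28 gave 18.3 and 14.5 normalized reads for M-EPC against 18.2 and 12.3 for OVX-EPC, with a fitted log2 difference of -0.11 (95% confidence interval -0.84 to 0.62). The upstream Trim28 region gave 5.37 and 13.6 for M-EPC against 3.04 and 10.4 for OVX-EPC, so that the libraries of a group differed more than the groups did, and its interval was the widest, -1.82 to 0.81. The Ehmt1 promoter had the same form, with 7.52 and 12.7 for M-EPC against 5.06 and 10.4 for OVX-EPC, and an interval from -1.44 to 0.69. The distal Setdb1 region was the most alike in the 2 groups, with 23.6 and 17.2 for M-EPC against 17.2 and 21.8 for OVX-EPC, at a fitted log2 difference of -0.06 (95% confidence interval -0.73 to 0.61). Summed over both regions Trim28 gave 23.6 and 28.0 for M-EPC against 21.3 and 22.7 for OVX-EPC, so its sums did not overlap (two-sided exact permutation p = 0.333). The difference of the Trim28 sums, -0.22 on the log2 scale, was larger than the spread of 0.13 between replicates, and with TMM factors it was -0.06.

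**Figure D4:**
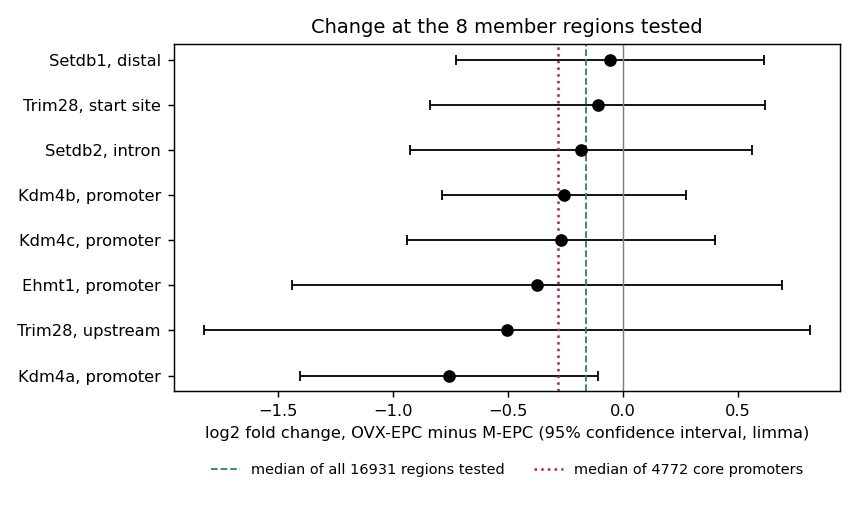
Log2 fold change of OVX-EPC minus M-EPC (x axis) with its 95% confidence interval from limma for the 8 member regions tested, beside the medians of all 16931 regions (dashed) and of 4772 core promoters (dotted). The interval of Kdm4a alone ends below 0, and all 8 intervals hold both medians.

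Setdb2, a SET domain methyltransferase related to SETDB1, was the one member that could be compared across all 3 groups. To put the libraries on 1 scale, reads were expressed per 1000000 reads in covered regions (RPM). The intronic region gave 89.9 and 59.5 RPM for the M-EPC libraries and 48.6 and 47.6 RPM for those of F-EPC. The OVX-EPC libraries gave 62.2 and 67.2 RPM. The F-EPC libraries were the lowest, M-EPC replicate 1 was the highest, and the OVX-EPC values lay between those of the M-EPC libraries. The counts were 12 to 18 reads in every library, and their exact Poisson 95% intervals all overlapped. In the table of F-EPC and M-EPC the authors' values were 11.2 and 11.1 against 22.5 and 14.2. The log2 fold change there was -0.64 (SE 0.37, 95% confidence interval -1.40 to 0.12, limma adjusted p = 0.294), in a comparison where 1.79% of 8139 covered regions passed and 36.0% did not overlap and were lower in F-EPC. Without M-EPC replicate 1 it was -0.33, and without M-EPC replicate 2 it was -0.96. In the table of OVX-EPC and F-EPC the values were 14.8 and 16.2 against 11.4 and 11.2. The log2 fold change was 0.42 (SE 0.37, 95% confidence interval -0.32 to 1.16, limma adjusted p = 0.873), where 1 of 7897 covered regions (0.0127%) passed and 19.6% did not overlap and were higher in OVX-EPC. Between OVX-EPC and M-EPC it was -0.18 (95% confidence interval -0.93 to 0.56), and without M-EPC replicate 1 it was 0.10. These 3 comparisons share libraries, and each group enters 2 of them.

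Where F-EPC replicate 2 had reads, it is given as the value of 1 library with no test. The Kdm4b promoter gave 186 RPM in that library, against 235 and 195 RPM for M-EPC libraries and 182 and 179 RPM for OVX-EPC libraries. The distal Setdb1 region gave 91.1 RPM, inside the range of the other libraries (80.7 to 110). The Ehmt1 promoter gave 31.7 RPM, also inside the range of 23.9 to 59.5. The Kdm4b intron gave 15.9 RPM on 4 reads, against 49.9 and 38.2 RPM for the male libraries and 23.9 and 13.4 RPM for OVX-EPC, so that the female libraries here were all below the male ones at low counts. Kdm4a, Kdm4c and Trim28 have no F-EPC reads.

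**Figure D5:**
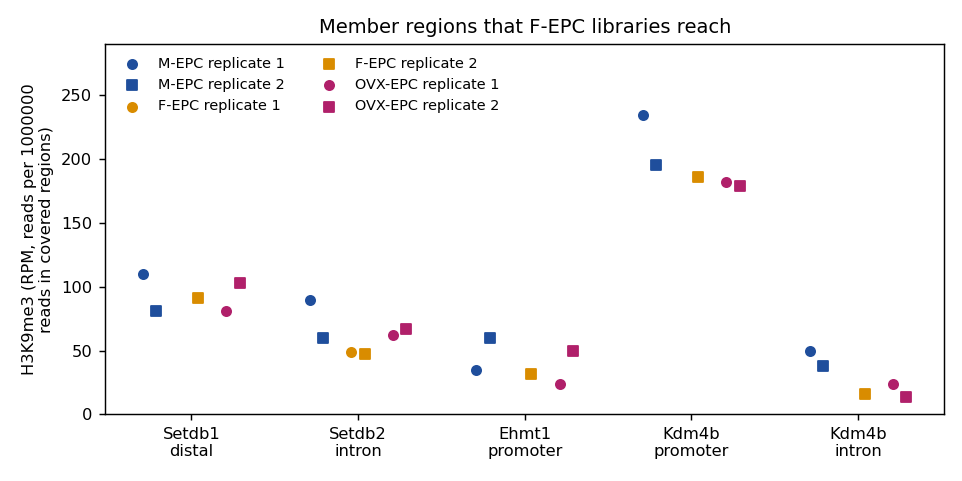
RPM, reads per 1000000 reads in covered regions (y axis), at the 5 member regions with F-EPC reads (x axis), with circles for replicate 1 and squares for replicate 2 of each group. F-EPC replicate 1 appears at Setdb2 alone. F-EPC replicate 2 lies inside the range of the M-EPC and OVX-EPC libraries at 4 regions and below it at Setdb2.

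The promoters that Cbx5 and Setdb2 share with a neighbour gave values in all 3 groups. The region between Cbx5 and Hnrnpa1 gave 27.9 and 23.5 normalized reads for M-EPC against 21.3 and 16.1 for OVX-EPC, with a fitted log2 difference of -0.45 (SE 0.32, limma adjusted p = 0.474). For F-EPC against M-EPC there the log2 fold change was -0.29 (limma adjusted p = 0.594), and for OVX-EPC against F-EPC -0.20 (limma adjusted p = 0.953). The region over the start of Setdb2, assigned to Cab39l, was weak, with 3 to 11 reads per library, and was too low to be tested in any comparison.

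Other genes of H3K9 methylation were taken from a list of 35, of which 27 had a region, 93 regions in all. Of 45 regions tested between OVX-EPC and M-EPC, 1 passed the adjusted threshold and 7 had an unadjusted p under 0.05 by limma. The change was below 0 at 35 and above it at 10, and the median was -0.33. A single gene, Cdyl2, gave 10 of the 45, all below 0, and 4 of the 7. Among the 7, the region that passed, chr8:116698507-116698906 and chr8:116687044-116687443 of Cdyl2, and chr6:136611441-136611840 of Atf7ip, entered the test through M-EPC alone. Their OVX-EPC values were all under the minimum of 10, so the filter fixed their direction and it is no result. Over all regions 0.449% passed, 16.1% had an unadjusted p under 0.05, 62.3% were below 0 and the median was -0.16. Of 16 tested between F-EPC and M-EPC 0 passed by limma and 4 had an unadjusted p under 0.05, against 22.8% of all covered regions tested. Among those 4, chr13:35646117-35646516 of Cdyl and chr10:67260222-67260621 of Jmjd1c entered the test through M-EPC alone. In that comparison 9 of the 16 were below 0, against 61.9%, with a median of -0.09 against -0.19. Of 10 tested between OVX-EPC and F-EPC 0 passed by limma and 0 had an unadjusted p under 0.05, against 6.22%. Of these, 4 were below 0, against 47.0%, with a median of 0.14 against 0.03. The region that passed lay in an intron of Cdyl2, which encodes a chromodomain protein of the CDYL family. At chr8:116684324-116684723 the M-EPC libraries gave 22.6 and 28.0 normalized reads against 4.05 and 9.46, with both OVX-EPC libraries below both M-EPC libraries. The log2 fold change was -1.85 (limma adjusted p = 0.0294). Both OVX-EPC values were under the minimum of 10, so the region entered the test through M-EPC. The adjusted p of this Cdyl2 region was 0.0384 by edgeR and, by limma, 0.0143 with a pseudocount of 5. By limma the call was also kept with no filter (0.00323) and with the replicate block (0.0021). It was lost with TMM factors (0.0782), with a pseudocount of 0.1 (0.0562), without M-EPC replicate 1 or 2 (0.194 and 0.234) and without OVX-EPC replicate 1 (0.145), while the log2 fold change under these settings lay between -2.0 and -1.32. By DESeq2 the region had an unadjusted p of 0.0121 and received no adjusted p, so it could not pass. With a minimum of 30 it was not tested. Cdyl2 had 12 regions, all in introns. Repeats masked 81.2% of the bases of the region that passed.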

How the data were processed

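H3K9me3 CUT&Tag libraries of 3 groups (2 each) were deposited as 3 tables, 1 for each pair of groups. Per the study's methods, the authors trimmed paired reads to 25 bases, aligned them to mm10 with Bowtie2, removed duplicates with Picard, dropped reads of mapping quality under 10 and called peaks with MACS. The submitters' processing notes name BWA and MACS2, so the aligner is not settled by the sources used here. Dropping poorly mapped reads lowers values in repeats. The deposited signal is a normalized read value per region and library. All values (100%) were whole reads divided by 1 factor per library and table, within 0.001, so tests stayed within a table. The tables also hold the authors' fold changes and p-values, which were not used.

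Regions with a value of 10 or more in at least 2 libraries were tested with limma 3.58.1 (trend, log2(value + 1)) in R 4.3.3, with Benjamini-Hochberg adjustment over all regions tested. F-EPC comparisons used covered regions. Gene sums were tested with two-sided exact permutation tests (SciPy 1.17.1). Alternatives were TMM factors, other pseudocounts and filters, leaving out each library, the replicate number as a block, and edgeR 4.0.16 and DESeq2 1.42.0 on the recovered reads. The fits were also run on simulated counts, with changes much larger than any at the members. That run cannot show whether changes as small as those of the members would be found. Positions were read from GENCODE M21 and sequences from GRCm38 with samtools 1.23.1. RPM values are reads per 1000000 reads in covered regions. Members and gene lists were chosen with earlier results of these data known. Named regions were all member regions and, from the pathway list, those past the adjusted threshold.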

Additional observations from a re-analysis of the deposited data

Results flagged for a closer look

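F-EPC replicate 2 held reads at 4 member regions that lie past the last read of F-EPC replicate 1 and so outside the covered regions to which the F-EPC comparisons were limited. Its counts were 47 reads at the Kdm4b promoter, 23 at the distal Setdb1 region, 8 at the Ehmt1 promoter and 4 at the Kdm4b intron. With 1 library they have no replicate check.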

How the results depend on the processing

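No member passed the adjusted threshold under any alternative run except 1. With all deposited regions, where absent F-EPC reads enter as 0, 3 members passed in each F-EPC comparison, and and of all regions 5684 passed for F-EPC against M-EPC and 5076 between OVX-EPC and F-EPC. Between OVX-EPC and M-EPC the count of 76 regions was 50 with TMM factors (15 higher and 35 lower, against 8 and 68), 40 with a pseudocount of 0.1, 145 with no filter, 123 with a minimum of 30, 137 by edgeR, 12 by DESeq2 and between 15 and 199 when any 1 library was dropped. Between F-EPC and M-EPC the count of 146 was 24 with TMM (6 higher and 18 lower, against 14 and 132), 242 with a pseudocount of 5, 231 with no filter, 4 by DESeq2 and between 95 and 647 when any 1 library was dropped. Between OVX-EPC and F-EPC the count of 1 was 0 with a minimum of 30 or by DESeq2, and between 0 and 15 when any 1 library was dropped. The members' median for OVX-EPC against M-EPC ran from -0.34 to -0.045 with 1 library left out. Setdb2's change for OVX-EPC against F-EPC was 0.33 with a pseudocount of 5. Gene sums for OVX-EPC against M-EPC changed sign at Setdb1 (0.10 with TMM, -0.28 to 0.16 with 1 library left out), Setdb2 (-0.47 to 0.10), Ehmt1 (-0.83 to 0.080) and Kdm4c (-0.57 to 0.031). The cause was not tested. With the replicate number as a block, 103, 166 and 0 regions passed in the order above and no member did. Deviations of same-numbered libraries correlated at -0.02, -0.05 and -0.03. At so few reads per region counting error pulls such a correlation toward 0, so it does not settle whether the numbers pair the libraries. Without its distal region Setdb1 has no value. At 3 to 47 reads per value, intervals of the members' log2 changes spanned 1.06 to 2.64.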
